A study of Homo sapiens with 22 samples.

Results

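The genes described here are 9 members of the interleukin 6 (IL-6) cytokine family and its signalling chain, chosen by symbol from the 33694 genes counted: the ligands IL6, IL11 and LIF, the receptors IL6R, LIFR and OSMR, the shared receptor subunit IL6ST, the transcription factor STAT3 and the feedback inhibitor SOCS3. They were followed in BJ cells, an established line of human newborn foreskin fibroblasts, that were reprogrammed towards induced pluripotent stem cells in microfluidic channels by repeated transfection of non-modified mRNAs for POU5F1, SOX2, KLF4, MYC, LIN28 and NANOG. Cells were taken untransfected on D0, during the transfections on D3, D5 and D7, and after the last transfection and a change of medium on D9, D11, D13 and D15. Each of the 8 days had 2 pools, A and B (n = 2), each made of cells from several microfluidic chips that were frozen before droplet capture. The change of medium between D7 and D9 and the end of transfection fell at the same point. They cannot be told apart in any comparison of D7 with D9 or of the days before with the days after. The paper's methods also replace the growth medium, which held serum, with reprogramming medium when the transfections start. Transfection and this earlier change of medium cannot be told apart in any comparison of D0 with a later day.

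Cytokines of this family bind a receptor chain of their own, and the complex then recruits gp130, the protein of IL6ST, which carries the signal into the cell. IL6R and IL11RA bind IL-6 and IL-11, whereas LIFR and OSMR pair with gp130 and signal themselves. Janus kinases bound to these chains phosphorylate STAT3, which enters the nucleus and switches on targets that include SOCS3, whose product binds gp130 and shuts the signal down. IL-6 is a known product of stressed and senescent fibroblasts that favours reprogramming of neighbouring cells, and LIF is best known for holding mouse embryonic stem cells in self-renewal, which human pluripotent cells do not need.

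Stretches before the start sites are shown to place the members' STAT, kappa-B and AP-1 letters, the motifs of the pathway's own factor and of the inflammatory and immediate early factors. RefSeq promoter windows, which run from 250 bases before to 50 bases after each start site on GRCh38.p14, were matched for 8 of the 9 members and searched on both strands for a STAT motif (TTCNNNGAA), a kappa-B motif (GGGA, any base, then TTTCC) and an AP-1 motif (TGANTCA). Only the bases upstream of the start are printed, with the matched motif in capitals. The IL6 stretch is chr7:22727080-22727199 on the plus strand, with a kappa-B match 73 bases before the start. The IL11 stretch is chr19:55370464-55370583 on the minus strand, with an AP-1 match 96 bases before the start. Of the 3 windows of LIFR, 2 held a STAT match, at chr5:38595406-38595605 (165 bases before the start) and at chr5:38557468-38557667 (182 bases before the start), both on the minus strand.
IL6: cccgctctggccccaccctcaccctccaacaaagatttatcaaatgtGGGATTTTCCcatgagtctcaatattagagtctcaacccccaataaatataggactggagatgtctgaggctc
IL11: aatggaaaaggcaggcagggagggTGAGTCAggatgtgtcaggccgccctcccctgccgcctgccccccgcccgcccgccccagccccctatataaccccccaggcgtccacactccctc
LIFR, first window: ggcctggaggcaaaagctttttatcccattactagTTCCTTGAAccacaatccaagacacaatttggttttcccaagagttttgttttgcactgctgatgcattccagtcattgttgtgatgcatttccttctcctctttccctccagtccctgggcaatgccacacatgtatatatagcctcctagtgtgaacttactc
LIFR, second window: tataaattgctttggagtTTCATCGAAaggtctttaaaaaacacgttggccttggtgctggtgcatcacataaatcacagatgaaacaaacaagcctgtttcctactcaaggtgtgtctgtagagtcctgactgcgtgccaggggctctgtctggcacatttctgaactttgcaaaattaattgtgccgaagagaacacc

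The kappa-B letters were found in 0.558% of the 35116 promoters in the table, the STAT letters in 7.66% and the AP-1 letters in 7.71%. IL6R and OSMR each held an AP-1 match after the start site, TGAGTCA at base 37 and TGATTCA at base 3. No motif matched in the windows of IL6ST, STAT3 and SOCS3, which says only that these letters were not there. Neither SOCS3 window (chr17:78360876-78361175 and chr17:78359618-78359917) holds the annotated 5' end of the gene, base 78360077 on the minus strand. The annotated 5' ends of IL6 (base 22725884, plus strand) and LIFR (base 38608354, minus strand) also lie outside the windows of these genes. The bases around these ends were not searched. A match is a description of sequence and was not tested for binding.

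The counts are unique molecular identifiers (UMIs), raw and per cell, and 41975 of 44197 barcodes were kept: those in which 1000 or more genes were detected and mitochondrial UMIs did not exceed 10%. UMIs were summed per pool, to between 33181614 and 180056814, and levels are given in CPM, the UMIs of a gene per 1000000 UMIs of the pool. Differences are log2 fold changes from edgeR's quasi-likelihood test with all 16 pools in 1 fit, and a gene was called at a Benjamini-Hochberg adjusted p below 0.01 over all genes tested and a log2 fold change beyond 0.25. The labels do not say whether the pools of a day are separate cultures, so p-values measure the spread between these pools. CPM values of different genes are not compared.

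Fibroblast identity on D0 held against its markers. A cell was called somatic-high when, thinned to 5000 UMIs, it showed at least 3 more of 12 fibroblast markers (collagens, DCN, LUM, TAGLN and S100A4) than of 12 markers of early pluripotent cells (such as L1TD1, DPPA4 and TDGF1), and developmental-high for the reverse. On D0 somatic-high cells made up 99.97% and 99.91% of the pools, and no cell was developmental-high before D7. On D9 they made up 38.3% and 30.3%, and on D15 9.11% and 10.6%, while developmental-high cells reached 85.6% and 80.8%. None of the 9 members was among the markers.

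The ligands were rare transcripts, and none of IL6, IL11 and LIF was called between adjacent days in the pool sums. IL6, the founding cytokine of the family, stood at 0.918 and 0.870 CPM in pools A and B of D0, at 1.52 and 0.232 on D3, 3.39 and 2.44 on D5, 1.63 and 2.61 on D7, 6.89 and 5.63 on D9, 3.30 and 8.96 on D11, 5.48 and 1.31 on D13, and 0.452 and 0.586 on D15. In pool A of D3, 1 cell held 92 of the 143 IL6 UMIs (64.3%). Both D9 pools were above every pool of D0 to D7 and of D15, but the pools of D11 and D13 spread widely and overlapped with most other days. No step between adjacent days was called for IL6, including D7 to D9 (log2 fold change 1.55, standard error 0.69, adjusted p = 0.16 from edgeR).

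IL11, a cytokine known for its part in fibrosis, gave 4.57 and 4.74 CPM on D0 and lay between 2.52 and 5.44 in the 6 pools of D3 to D7. It then read 14.4 and 11.5 on D9, 9.52 and 7.89 on D11, 11.4 and 3.31 on D13, and 2.47 and 3.21 on D15. The 4 pools of D9 and D11 were all above the 8 pools of D0 to D7. The step from D7 to D9 measured 1.73 on the log2 scale (standard error 0.45) and missed the call with an adjusted p of 0.020 from edgeR. It was called when a replicate block on the pool letter was added. LIF ranged from 0.324 to 1.22 CPM in the pools of D0 to D7 and from 0.723 to 2.73 CPM in those of D9 to D15, with its highest value in pool A of D13, and these ranges overlap.

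The share of cells with a UMI was also measured. After thinning to 5000 UMIs, an IL6 UMI was found in 0.414% ± 0.0362 (SD, n = 2) of cells on D0, in 1.84% ± 0.807 on D9, in 2.57% ± 1.41 on D11, in 1.70% ± 1.60 on D13 and in 0.285% ± 0.403 on D15. An IL11 UMI was found in 1.99% ± 0.276, 4.88% ± 0.486 and 1.56% ± 0.475 of cells on D0, D9 and D15, so the share with IL11 on D9 lay above both other days.

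Among the receptors, IL6R and IL6ST both fell from D0 to D3, and after D7 IL6R was higher while IL6ST was lower. IL6R, which binds IL-6 itself, read 1.15 and 1.12 CPM on D0, 0.341 and 0.424 on D3, 0.445 and 0.453 on D5, 0.630 and 0.373 on D7, 1.33 and 1.57 on D9, 1.39 and 1.52 on D11, 1.17 and 1.41 on D13, and 1.21 and 1.34 on D15. Every pool of D3 to D7 was below every other pool. It fell by 1.43 on the log2 scale from D0 to D3 (standard error 0.29, adjusted p = 0.0022) and rose by 1.51 from D7 to D9 (standard error 0.28, adjusted p = 0.0031), both from edgeR, and these calls were kept in 14 and 13 of the 16 fits that left out 1 pool (adjusted p up to 0.021 and 0.045). The pools whose absence ended the first call were A of D0 and A of D3, and for the second B of D7, A of D9 and B of D9. The first call also ended when only the pools of D0 and D3 were fitted (adjusted p = 0.019) and with 2500 cells per day (adjusted p = 0.062). The second ended when only the pools of D7 and D9 were fitted (adjusted p = 0.018) and with sums thinned to the smallest total (adjusted p = 0.017). It also ended within somatic-high cells, where the log2 fold change was 1.64 (standard error 0.38, adjusted p = 0.046 from edgeR). A UMI of IL6R was seen in 4.02% of cells at full depth. Because IL6R is carried by leukocytes, 8 leukocyte markers (PTPRC, CD14, LYZ, CD3E, CD79A, ITGAM, CSF1R and TYROBP) were summed in each pool. Their sum was between 1.73 and 4.01 CPM in the pools of D0 to D7 and between 2.50 and 7.31 CPM from D9 on, with up to 3 of the 8 at 0. The part of these transcripts in the IL6R values was not tested.

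IL6ST, the shared signalling subunit, fell from D0 to D3, and no later step between adjacent days was called. It stood at 93.0 and 100.3 CPM on D0, at 20.3 and 32.3 on D3, 34.5 and 36.8 on D5, 22.5 and 31.0 on D7, 16.2 and 21.1 on D9, 15.4 and 19.1 on D11, 10.3 and 12.8 on D13, and 6.81 and 7.88 on D15. The D0 pools stood apart from all others, and the D15 pools were the lowest. The fall was 1.75 on the log2 scale from D0 to D3 (standard error 0.26, adjusted p = 0.00025), and 3.96 from D0 to D15 (standard error 0.29, adjusted p = 6.6e-08 from edgeR). With only the pools of D0 and D3 fitted, the first was not called (adjusted p = 0.017). The share of cells with an IL6ST UMI after thinning went from 36.7% ± 1.31 on D0 to 12.9% ± 4.10 on D3 and 4.54% ± 0.483 on D15.

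LIFR and OSMR are the receptor chains for LIF and oncostatin M. LIFR read 5.34 and 6.47 CPM on D0, 3.94 and 4.46 on D3, 7.71 and 7.34 on D5, 5.44 and 7.98 on D7, 2.81 and 2.67 on D9, 2.11 and 3.59 on D11, 4.32 and 7.15 on D13, and 6.42 and 6.09 on D15. All 4 pools of D9 and D11 were below the 8 pools of D0 to D7, and the D15 pools were back within the range of those pools. The fall from D7 to D9 was 1.31 on the log2 scale (standard error 0.30, adjusted p = 0.0098 from edgeR), just inside the threshold. It was kept in 6 of 16 fits that left out 1 pool and lost without either pool of D0, D5, D7, D9 or D15 (adjusted p up to 0.11). It also ended under 8 other alternatives, with adjusted p from 0.010 with only the pools of D7 and D9 to 0.28 within somatic-high cells. OSMR read 8.40 and 9.48 CPM on D0, 11.3 and 9.58 on D5, 4.74 and 3.84 on D9, and 1.15 and 1.82 on D15, with 5.81 to 7.84 on D3 and D7 and 2.42 to 5.21 on D11 and D13. No pool of D9 to D15 reached any pool of D0 to D7. From D0 to D15 it fell by 2.81 (standard error 0.32, adjusted p = 4.1e-06 from edgeR).

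STAT3, the factor these receptors activate, was the steadiest member. Its levels were 45.4 and 47.8 CPM on D0, 23.0 and 33.4 on D3, 28.2 and 38.5 on D5, 28.5 and 28.9 on D7, 29.6 and 30.5 on D9, 30.5 and 37.5 on D11, 32.3 and 31.7 on D13, and 35.1 and 38.1 on D15. Only the D0 pools stood apart. The fall of 0.60 from D0 to D3 on the log2 scale was not called (standard error 0.22, adjusted p = 0.053 from edgeR), nor was any later step.

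SOCS3, the inhibitor made in response to STAT3, gave 36.8 and 41.2 CPM on D0 and then 8.15 and 1.72 on D3, 16.6 and 6.43 on D5, 5.86 and 12.96 on D7, 17.8 and 17.0 on D9, 8.28 and 17.4 on D11, 25.9 and 6.89 on D13, and 4.91 and 5.42 on D15. Only D0 lay above all other days. The pools of D3 differed most from each other as a ratio, and those of D13 in CPM. It fell by 2.86 from D0 to D3 (standard error 0.71, adjusted p = 0.0077) and by 3.16 from D0 to D15 (standard error 0.73, adjusted p = 0.0017), both from edgeR. The first call was lost in 7 of 16 fits that left out 1 pool (A or B of D0, B of D3, A or B of D9, A or B of D15; adjusted p up to 0.037), its log2 value running from -4.37 without A of D3 to -2.26 without B of D3, and the second without A or B of D15 (adjusted p up to 0.021). With only the pools of D0 and D3 fitted the first was not called (adjusted p = 0.049), nor was the second within somatic-high cells (adjusted p = 0.16). Aliquots of a single pool also differed: the aliquots of pool A of D5 gave 19.97 and 3.94 CPM. Immediate early genes, which respond to growth factors and to stress, moved beside it. Of 9 such genes 6 fell from D0 to D3 and 7 from D0 to D15, where 19% and 51.5% of all genes were called in either direction. Their sum was 2006 and 2049 CPM on D0 against 209 to 634 CPM in all later pools. FOS went from 438 and 468 CPM to 75.3 and 71.2 on D3. Their part in the SOCS3 values was not tested.

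**Figure D1:**
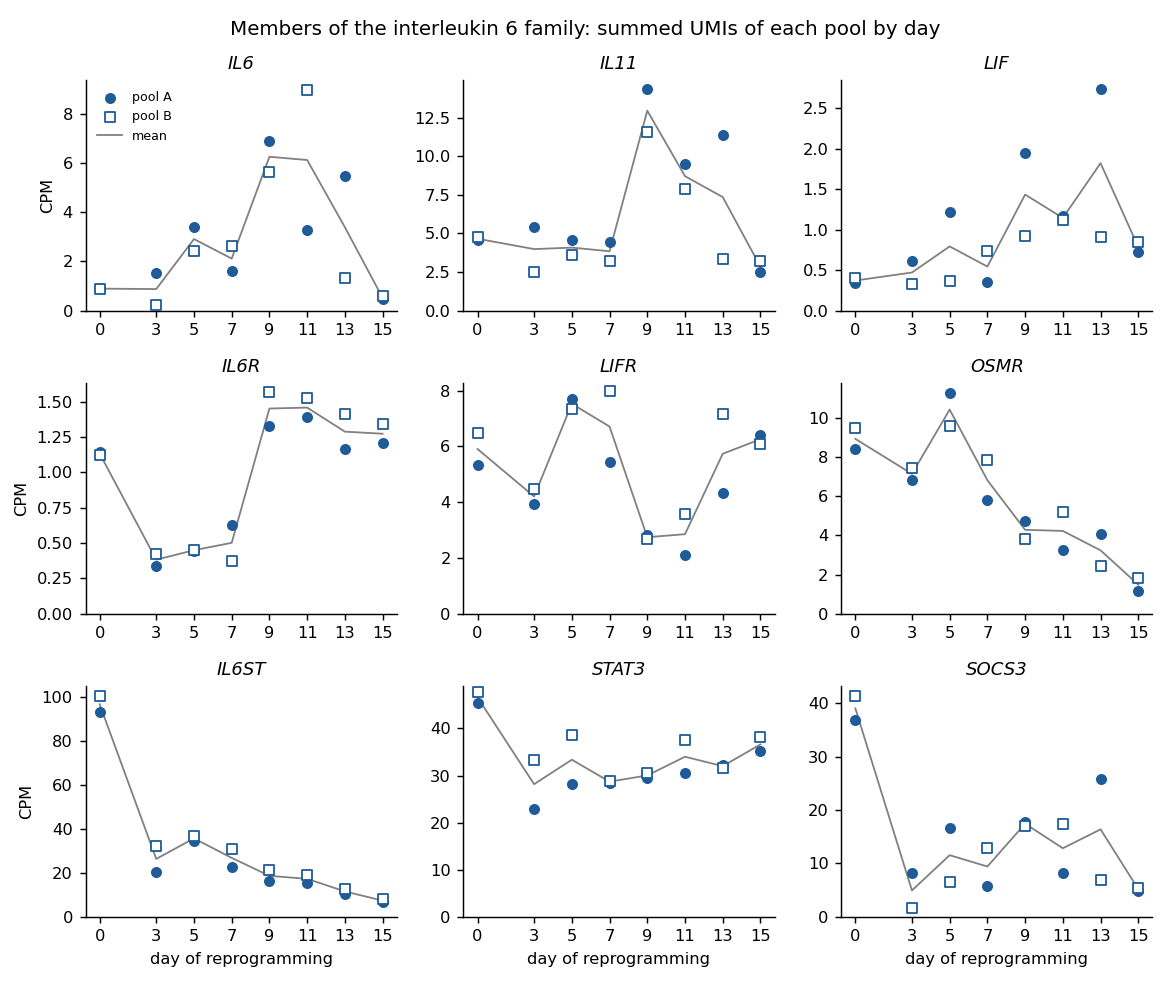
Levels of the 9 members in CPM (vertical axis, from 0) by day (horizontal axis). Filled circles are pool A, open squares pool B, and the grey line joins the means of 2 pools. IL6ST and SOCS3 are highest on D0, IL11 peaks on D9 at 14.4 and 11.5 CPM, and IL6R is lowest on D3 to D7.

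By comparison of days, 3 of the 9 members fell from D0 to D3 (IL6R, IL6ST and SOCS3) and none rose, where 19% of 21179 genes were called. The median log2 fold change of the members was -0.36, against 0 over all genes. In the steps D3 to D5 and D5 to D7, edgeR called 0 members, where 2.85% and 1.41% of all genes were called, and DESeq2 called 0 in both steps. At an unadjusted p under 0.05 from edgeR there were 0 members in both steps, beside 4756 and 3235 of 21179 genes. From D7 to D9 IL6R rose and LIFR fell, where 6.85% of all genes were called. edgeR called 0 members from D9 to D11, D11 to D13 and D13 to D15, steps with 4.95%, 0.321% and 0.137% of genes called. At an unadjusted p under 0.05 these steps had 0, 1 (LIFR) and 5 members (IL6, IL11, IL6ST, OSMR and SOCS3), beside 5613, 3839 and 4409 of 21179 genes. DESeq2 called 0, 0 and 1 (IL6) in them. The shares of genes called are those of edgeR. Those of DESeq2 are not given, so its counts in all these steps have no background beside them. From D0 to D15 IL6ST, OSMR and SOCS3 fell, 3 of 9 where 51.5% of genes were called. Between D3 to D7 and D9 to D15, IL6R rose by 1.48 (standard error 0.16, adjusted p = 3.1e-06), while IL6ST fell by 1.34 (standard error 0.14, adjusted p = 1.3e-06), OSMR by 1.54 (standard error 0.16, adjusted p = 1.4e-06) and LIFR by 0.70 (standard error 0.16, adjusted p = 0.0017), all from edgeR. These 4 of 9 members stand beside 47.3% of all genes called, and LIFR was not called when cells had at most 5% mitochondrial UMIs (adjusted p = 0.042).

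From D9 on each pool held both kinds of cells, so the members could be compared within pools. In the 8 pools of D9 to D15, UMIs were summed over somatic-high and over developmental-high cells, and edgeR was run with the pool as a block. All 9 members passed the filter, and 7 were lower in developmental-high cells and none higher, where 66.9% of 16136 genes were called. The median log2 difference of the members was -2.13, against 0.03 over all genes. For the 7 called members, somatic-high cells were higher in 8 of 8 pools.

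The ligand IL11 showed the widest gap of the members. Its level in somatic-high cells was 39.2 and 35.2 CPM on D9, 20.6 and 19.4 on D11, 33.9 and 12.1 on D13, and 23.4 and 24.1 on D15. In developmental-high cells of the same pools it lay between 0.613 and 2.67 CPM. It was lower there by a log2 difference of -3.93 (standard error 0.23, adjusted p = 2.8e-07 from edgeR). LIF averaged 4.24 ± 2.23 CPM in somatic-high and 0.507 ± 0.138 CPM in developmental-high cells (SD, n = 8 pools), a log2 difference of -2.87 (standard error 0.28, adjusted p = 4.8e-06 from edgeR).

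IL6 was split less sharply. Somatic-high cells averaged 6.25 ± 4.14 CPM and developmental-high cells 3.15 ± 2.79 CPM (SD, n = 8 pools), and the developmental-high level was between 4.15% and 84.2% of the somatic-high level of its own pool. In pool B of D11 the levels were 8.98 and 7.56 CPM, and there the developmental-high cells held 614 IL6 UMIs, 32 of them in the leading cell, and the somatic-high cells 440, 55 of them in the leading cell. The share of cells with an IL6 UMI after thinning to 5000 UMIs went the other way there, 2.25% of somatic-high and 3.75% of developmental-high cells, as it did in pool A of D13 (2.66% and 2.75%). The lowest ratio, 4.15% in pool A of D15, rests on 5 developmental-high UMIs, 3 in 1 cell, and 10 somatic-high UMIs, 6 in 1 cell. The log2 difference was -1.18 (standard error 0.33, adjusted p = 0.0068 from edgeR), and the call was lost without A or B of D9, A of D11, B of D13 or B of D15 (adjusted p up to 0.018).

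Among the receptors, IL6ST averaged 32.9 ± 5.69 CPM in somatic-high against 6.51 ± 3.23 in developmental-high cells (log2 difference -2.41, standard error 0.24, adjusted p = 5.3e-06). OSMR averaged 8.41 ± 2.87 against 1.17 ± 0.305 CPM (-2.79, standard error 0.19, adjusted p = 5.7e-07). LIFR averaged 7.07 ± 5.05 against 2.94 ± 1.34 CPM (-1.08, standard error 0.13, adjusted p = 2.8e-05, all from edgeR). These receptor chains were thus lower in the cells with pluripotency markers, whereas IL6R was not called (1.54 ± 0.821 against 1.65 ± 0.494 CPM, log2 difference 0.35, standard error 0.32, adjusted p = 0.34 from edgeR) and was higher in developmental-high cells in 4 of 8 pools.

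STAT3 had nearly equal levels, 33.9 ± 4.69 CPM in somatic-high and 33.2 ± 3.32 CPM in developmental-high cells, with a log2 difference of -0.01 (standard error 0.07, adjusted p = 0.89 from edgeR). SOCS3 was lower in developmental-high cells, 6.07 ± 3.64 against 25.6 ± 11.9 CPM (log2 difference -2.13, standard error 0.15, adjusted p = 7.1e-07 from edgeR). Beside it, 7 of the 9 immediate early genes were lower and 1 higher, with a median log2 difference of -1.66, and their part in the SOCS3 difference was not tested.

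Free RNA gives every cell some UMIs of genes that its neighbours express, so 5 fibroblast genes left out of the markers were measured the same way. Of these, TIMP1 is also on the list of known STAT3 targets used below. In developmental-high cells their median level was 7.73% of the somatic-high level for MMP2, 6.95% for TIMP1, 3.28% for FBN1, 3.52% for LOX and 7.38% for BGN. The median for IL11 was 5.51%, within that range, although IL11 lay above all 5 genes in 3 of 8 pools: pool A of D13 (6.14% against at most 4.76%, TIMP1), pool B of D11 (7.95% against at most 5.42%, TIMP1) and pool B of D15 (4.31% against at most 4.25%, MMP2). The part of free RNA in these UMIs was not tested. The medians of LIF (11.7%), OSMR (16.3%), IL6ST (18.5%), SOCS3 (21.3%), IL6 (41.9%) and LIFR (49.1%) lay above it, and those of STAT3 (96.8%) and IL6R (106%) were near equality, with a range over pools of 81.5% to 123% for STAT3 and of 37.8% to 307% for IL6R. Developmental-high cells were also deeper, with a median of 72139 UMIs against 49328 in pool A of D9, and levels in CPM take that depth into account.

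**Figure D2:**
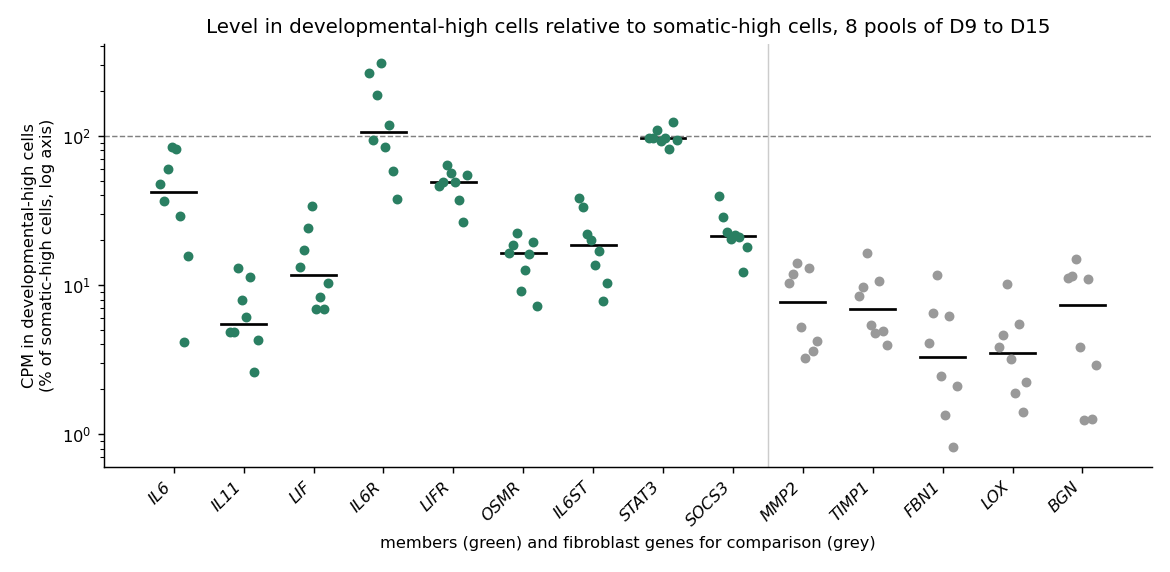
Level in developmental-high cells as a percentage of that in somatic-high cells of the same pool (vertical log axis) for the 9 members in green and 5 fibroblast genes in grey. Points are the 8 pools of D9 to D15, black bars their medians, and the dashed line marks equal levels. IL11 (median 5.51%) lies among the fibroblast genes, and STAT3 (96.8%) and IL6R (106%) lie near equality.

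In sums over a whole pool, fewer cells of a type and less RNA per cell cannot be told apart. The days were therefore compared again within somatic-high cells alone, a comparison added after the data were seen. That class shrank from 77.6% and 87.2% of the D7 pools to 38.3% and 30.3% of the D9 pools. Its make-up may therefore differ between days. Whether its levels changed within cells or through cells leaving the class was not tested. Between D3 to D7 and D9 to D15 the falls of IL6ST, OSMR and LIFR were not called there, with log2 differences of -0.09 (standard error 0.15, adjusted p = 0.69), -0.10 (standard error 0.20, adjusted p = 0.73) and -0.17 (standard error 0.21, adjusted p = 0.55). Within somatic-high cells IL6ST was between 21.1 and 38.9 CPM on D3 to D7 and between 25.1 and 39.9 CPM on D9 to D15. In developmental-high cells IL6ST averaged 10.9, 7.19, 4.65 and 3.31 CPM on D9, D11, D13 and D15 (means of 2 pools). LIFR averaged 1.75, 1.89, 3.67 and 4.46 CPM there on the same days. Days were not tested within developmental-high cells. From D0 to D3, when nearly all cells were somatic-high, IL6R, IL6ST and SOCS3 fell in them as well, where 16.6% of genes were called, and IL6ST fell by 1.82 on the log2 scale (standard error 0.28, adjusted p = 0.00043, all from edgeR). With 1 pool left out, the call of IL6ST was kept in 16 of 16 fits, that of IL6R in 10 (lost without A or B of D0, D3 or D5, adjusted p up to 0.051) and that of SOCS3 in 9 (lost without A or B of D0, B of D3, or A or B of D9 or D15, adjusted p up to 0.039).

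The ligands IL11 and LIF stood higher in the somatic-high class after D7, when it was a smaller share of the pools. On D9 to D15 this class also held mesendoderm markers. LHX1 averaged 13.1 ± 9.33 CPM in it against 5.43 ± 3.69 CPM in developmental-high cells and was higher in 7 of 8 pools. CER1 and EOMES also averaged higher in it, whereas MIXL1, GSC, FOXA2, SOX17 and T averaged lower. Their part in the levels below was not tested. IL11 had 2.59 to 5.73 CPM in the 8 pools of D0 to D7 and 12.1 to 39.2 CPM in the 8 pools of D9 to D15, without overlap. Its rise between D3 to D7 and D9 to D15 was 2.40 on the log2 scale (standard error 0.24, adjusted p = 2.0e-06), and the step from D7 to D9 was 3.04 (standard error 0.43, adjusted p = 0.0020), where 0.561% of genes were called. That step was lost without A or B of D7 or of D9 (adjusted p up to 0.056). LIF had 0.334 to 1.30 CPM in the pools of D0 to D7 and 2.06 to 8.91 CPM in those of D9 to D15, again without overlap. It rose by 2.53 (standard error 0.31, adjusted p = 1.6e-05, all from edgeR). IL6R rose by 1.56 (standard error 0.22, adjusted p = 7.0e-05) and SOCS3 by 1.39 (standard error 0.38, adjusted p = 0.0089), so 4 of 9 members rose and none fell, where 28.1% of 18899 genes were called. On D9 to D15, 2 of the 8 leukocyte markers were higher in somatic-high cells in 8 of 8 pools, TYROBP at 9.17 ± 11.2 against 1.00 CPM and CD14 at 5.55 ± 6.13 against 0.459 CPM, while PTPRC and CSF1R were higher there in 4 and 5 of 8 pools, CD79A (0.505 against 0.635 CPM), LYZ and ITGAM were higher in developmental-high cells in 6, 6 and 5 of 8 pools, and LYZ, CD3E and ITGAM averaged at most 0.0554 CPM in either class. Their part in the IL6R rise was not tested. The rises of IL11, LIF and IL6R were called in all 16 fits that left out 1 pool, and that of SOCS3 in 5 of them, with adjusted p up to 0.033 in the other fits. In the steps D3 to D5, D5 to D7, D9 to D11, D11 to D13 and D13 to D15 edgeR called 0 members in these cells, where 1.65%, 0.0317%, 0.873%, 0.122% and 0.0% of genes were called. In these steps 1, 0, 2, 2 and 1 members had an unadjusted p under 0.05. The share of all genes at that cut was not counted in somatic-high cells, so these counts have no background. The rise of IL6 was 1.37 and missed the call (standard error 0.39, adjusted p = 0.011 from edgeR).

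These values rest on few cells late in the course. On D15 the somatic-high cells numbered 52 in pool A and 224 in pool B, with 12 and 24 LIF UMIs and 57 and 121 IL11 UMIs. From D0 to D15 within these cells, IL11 rose by 2.07 and LIF by 3.41 while IL6ST fell by 1.68 (standard errors 0.43, 0.62 and 0.29; adjusted p = 0.0021, 0.00078 and 0.00053 from edgeR), where 20.4% of genes were called. Without pool B of D15 none of the 3 was called, and IL11 also missed the call without pool A of D0, B of D0 or A of D15, with adjusted p up to 0.022.

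**Figure D3:**
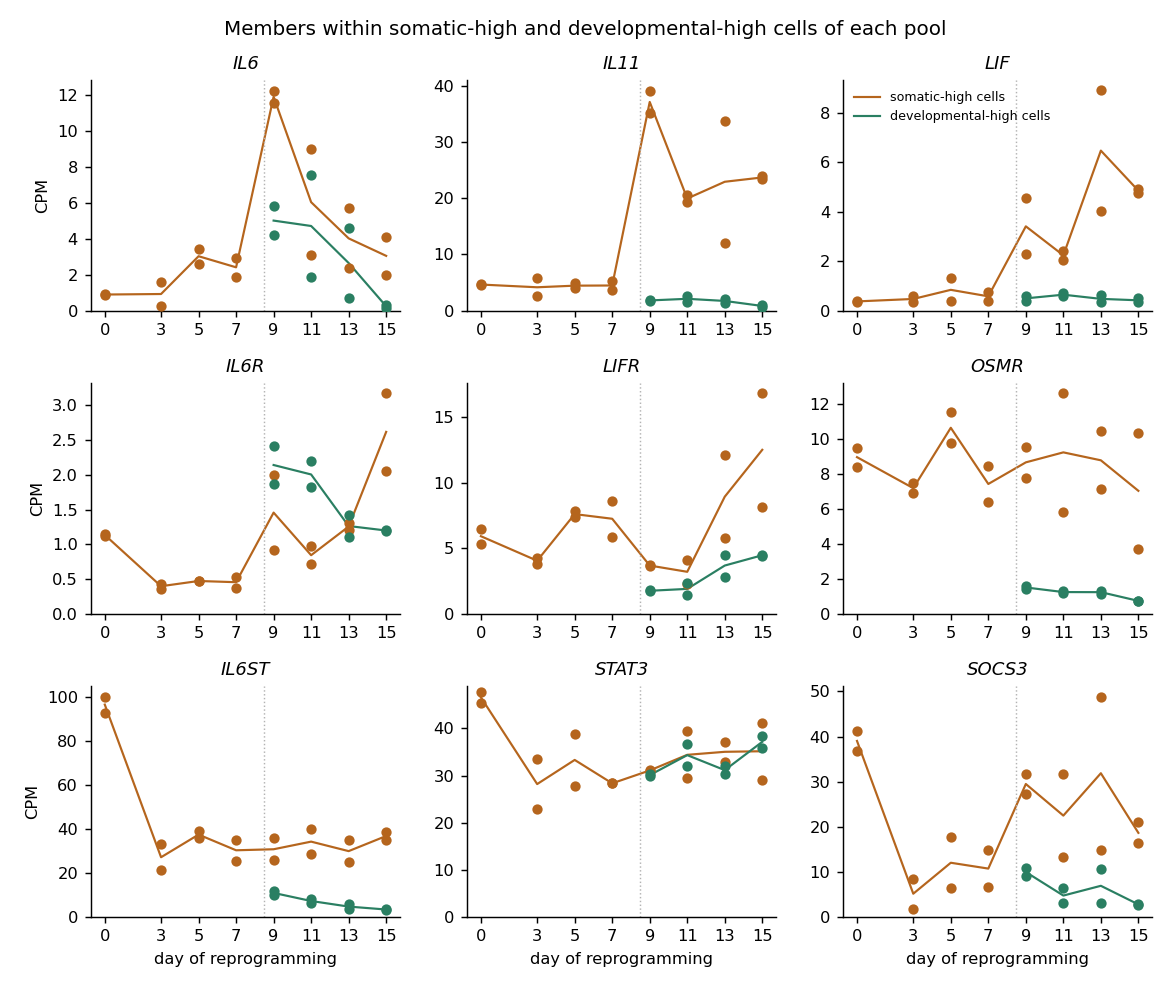
Levels of the 9 members in CPM (vertical axis, from 0) by day (horizontal axis) within somatic-high cells (brown) and developmental-high cells (green). Points are pools, and lines join the means of 2 pools. The dotted vertical line marks the end of transfection and the change of medium between D7 and D9. IL11 in somatic-high cells goes from 4.48 CPM on D7 to 37.2 CPM on D9 (means), and IL6ST in them stays between 21.1 and 39.9 CPM from D3 on.

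The other genes of the pathway were taken from lists of 12 further ligands and receptors, 14 kinases and regulators, 6 other STATs and 18 known STAT3 targets. Among the ligands and receptors, 8 of 12 could be tested, and from D0 to D15 2 rose and 4 fell, beside 51.5% of all genes called. CTF1, which codes for the ligand cardiotrophin 1, dropped from 13.5 and 14.2 CPM on D0 to 0.332 and 0.309 CPM on D15 (log2 fold change -5.68, standard error 0.67, adjusted p = 5.8e-06). CNTFR, the receptor chain for ciliary neurotrophic factor, went from 0.0060 and 0 CPM to 2.14 and 0.879 CPM. IL11RA, the receptor chain for IL-11, fell by 2.26 (standard error 0.28, adjusted p = 1.1e-05, all from edgeR). The ligand genes OSM, CNTF, IL27 and IL31 stayed at or below 0.0778 CPM in every pool.

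Within the pools of D9 to D15, 6 of the 8 ligands and receptors tested were lower in developmental-high cells and none higher, beside 66.9% of all genes called. IL11RA averaged 27.5 ± 5.60 CPM in somatic-high and 4.39 ± 1.27 CPM in developmental-high cells (log2 difference -2.62, standard error 0.14, adjusted p = 2.4e-07 from edgeR). CLCF1, another ligand of the family, differed by -2.79 (standard error 0.24, adjusted p = 2.4e-06 from edgeR).

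SOCS1, an inhibitor of Janus kinases, averaged 110 ± 44.2 CPM in developmental-high and 39.5 ± 14.1 CPM in somatic-high cells and was higher in 8 of 8 pools (log2 difference 1.46, standard error 0.09, adjusted p = 3.4e-07), opposite to SOCS3. PTPN6 and PTPN2, phosphatases that act on this pathway, were higher by 1.47 (standard error 0.16, adjusted p = 1.1e-05) and 0.95 (standard error 0.06, adjusted p = 6.0e-07). JAK2 was lower by 1.67 in the same cells (log2 difference -1.67, standard error 0.16, adjusted p = 5.8e-06, all from edgeR). Of the 14 kinases and regulators 3 were higher and 7 lower in developmental-high cells, and of the 6 other STATs 1 was higher and 4 lower. The share of all genes called in this comparison was 66.9%, so the count of kinases and regulators is near the background.

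Of 17 STAT3 targets tested, 5 were higher and 9 lower in developmental-high cells, where 66.9% of all genes were called, and their median log2 difference was -0.51 against 0.03 over all genes. The largest difference was that of TIMP1, lower by a log2 difference of -3.77 (193 ± 118 against 2420 ± 605 CPM) and also 1 of the 5 fibroblast genes above. FOS and JUNB are on this list and on that of the immediate early genes. PIM1, a survival kinase, averaged 53.7 ± 28.8 CPM in developmental-high against 15.6 ± 4.02 CPM in somatic-high cells and was higher in 8 of 8 pools (log2 difference 1.67, standard error 0.18, adjusted p = 1.3e-05), and TFCP2L1, a factor of pluripotent cells, was higher by 2.97 (standard error 0.34, adjusted p = 1.8e-05). ICAM1, an adhesion molecule, and CEBPD, a factor of the acute-phase response, were lower, with log2 differences of -2.82 (standard error 0.18, adjusted p = 4.2e-07) and -2.74 (standard error 0.15, adjusted p = 2.1e-07, all from edgeR). The target SERPINA3 was left out because its symbol belongs to 2 identifiers.

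**Figure D4:**
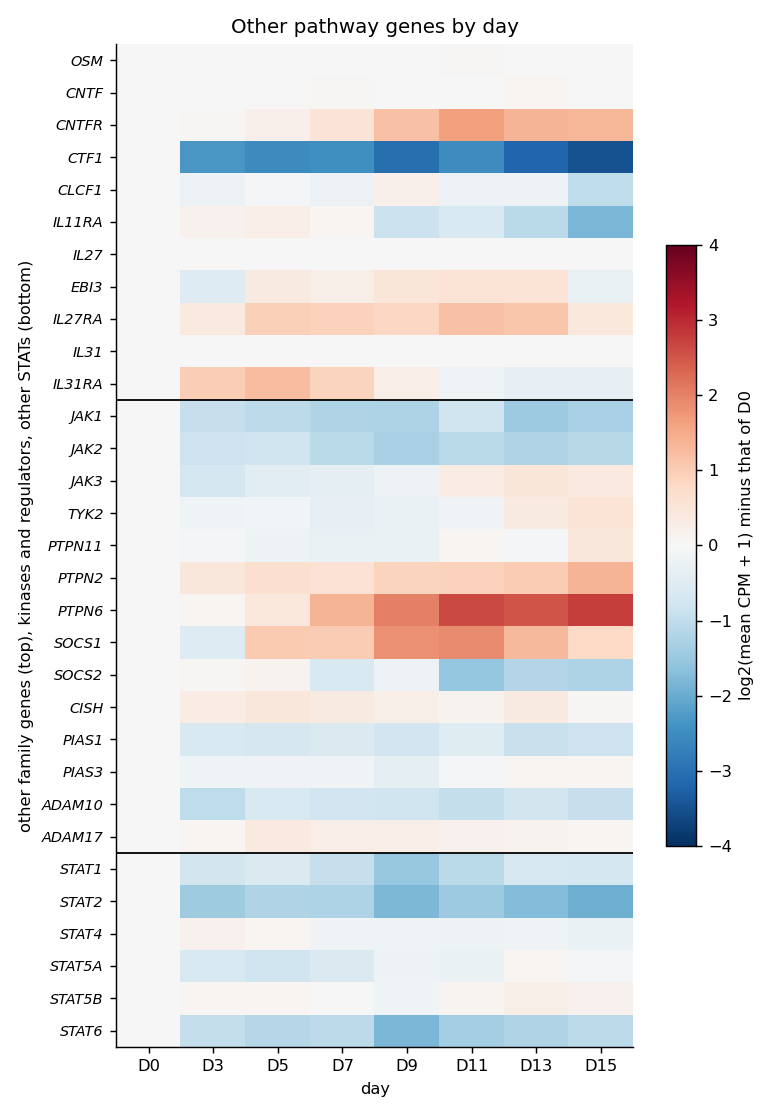
Other pathway genes by day, as log2(mean CPM + 1) minus the value on D0 (colour scale, red for higher and blue for lower than D0), averaged over 2 pools. Rows are, from top to bottom, other family ligands and receptors, kinases and regulators, and other STATs. CTF1 is blue from D3 on, and CNTFR and PTPN6 turn red.

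Likeness to each member was described over the 16 pools by Pearson's r of log2(CPM + 1), among 9407 genes with a mean of at least 5 CPM. The pools share the course of the days, so high values are common and carry no test. IL6ST was most like MAF (r = 0.979) and POLK, and OSMR was most like MOXD1 (r = 0.977), B2M and BICC1. SOCS3 was most like MAMDC2 (r = 0.960), CLIC4 and DNAJB4. The genes nearest to IL6 were ABCG2 (r = 0.924), MATN3 and BMP4, to IL11 AKTIP (r = 0.935), TM2D2 and TNFAIP1, to LIF RNF114 (r = 0.913), ATG13 and CHFR, to IL6R TIMP4 (r = 0.946), EFCAB2 and PPM1N, to LIFR LHFPL2 (r = 0.901), FYN and PPP3CA, and to STAT3 KIAA2026 (r = 0.912), ATRX and MPP5.

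Detection of pairs of members in the same cell was counted at a fixed depth. After thinning to 10000 UMIs, 402 cells over all pools had an IL6R UMI, and 133 of them also had an IL6ST UMI. An OSMR UMI was seen in 2667 cells, of which 1016 had IL6ST too, and 2104 cells had an LIFR UMI, of which 737 had IL6ST. IL6ST was more frequent among cells with the receptor than among the other cells of their pool in 15 of 16 pools for OSMR, 11 for IL6R and 10 for LIFR. Of 773 cells with IL6, 85 had IL11, 128 had SOCS3 and 15 had LIF. These were more frequent among cells with IL6 than among the other cells in 12, 9 and 7 of 16 pools. These are descriptions without a test, and the part of cell mixture in them was not tested.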

How the data were processed

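Per the labels and methods, the authors counted UMIs with Cell Ranger 2.2 on hg38, and the deposited values are raw counts per gene and cell, with no normalization and before filters on cells. The 22 libraries were joined into 16 pools, 6 of them with 2 aliquots. Sums per pool were tested with edgeR 4.0.16 in R 4.3.3 (TMM, filterByExpr). DESeq2 1.42.0, other filters, thinning and each pool left out were alternatives. Doublets were not called, and 1185 barcodes occur in more than 1 library, at most 1.63% of the smaller library of a pair. The fits were tested on simulated data. Members, lists and tests were chosen with earlier results of these data known. All members were named, and of each pathway list up to 4 called genes with the largest folds per comparison, others being named for contrast after their values were seen. Genes overlap on the other strand at OSMR (RICTOR), IL6 (IL6-AS1, STEAP1B), IL6R (IL6R-AS1), LIF (LIF-AS1, LIF-AS2), LIFR (LIFR-AS1) and IL6ST (2 unnamed genes), and the strand setting of the counting is not given in the sources used here. Some genes that these rules would name are not reported here.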

Additional observations from a re-analysis of the deposited data

Results flagged for a closer look

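IL6R differed in direction between days when the cell classes were compared within pools. On D11 it was higher in developmental-high cells of both pools, at 187% and 307% of the somatic-high level, a mean log2 ratio of 1.26. On D15 it was lower there in both pools, at 58.1% and 37.8%, a mean log2 ratio of -1.09. The difference between these days was not tested. The somatic-high values rest on 60 and 35 IL6R UMIs on D11 and on 5 and 16 on D15.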

How the results depend on the processing

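Direction was followed only for members called, or with a log2 fold change beyond 1, in the main fit of a comparison. None of these changed direction under the alternatives run. Below that limit, IL11 from D0 to D15 was at -0.95 in the pool sums and not called (adjusted p = 0.084 from edgeR). Within somatic-high cells it was called in the other direction, at 2.07 (adjusted p = 0.0021 from edgeR). IL6, IL6R and LIFR also changed sign there and were not called. From D0 to D3, where 3 members were called, fitting only the pools of those days gave 0, and from D0 to D15 the same choice gave 7 in place of 3. From D7 to D9, where 2 were called, DESeq2 size factors, every deposited barcode, 2500 cells per day and somatic-high cells alone each gave 1, and sums thinned to the smallest total gave 0. A filter at 5% of cells gave 0 among the 7 members it left, IL6R not among them. From D13 to D15, where 0 were called, DESeq2 and no filter on genes each gave 1. Within somatic-high cells DESeq2 gave 3 in place of 1 from D7 to D9. The causes of these moves were not tested. These counts, and those below with 1 pool left out, are given without the share of all genes called under the same setting. They can therefore not be set against a background. With 1 pool left out, counts ran from 1 to 3 (D0 to D3), 0 to 3 (D7 to D9), 0 to 1 (D13 to D15), 2 to 3 (D0 to D15), 4 to 6 (D3 to D7 against D9 to D15) and 6 to 7 (classes), and were 0 from D3 to D5, D5 to D7, D9 to D11 and D11 to D13. Within somatic-high cells they ran from 1 to 3 (D0 to D3), 0 to 1 (D7 to D9), 0 to 3 (D0 to D15) and 3 to 5 (D3 to D7 against D9 to D15). The letters A and B were not taken to pair the pools. Over 28 pairs of days the correlation of deviations had a median of -0.015 and ran from -0.233 to 0.599, so some days did share them. A replicate block on the letter gave 3 members from D7 to D9 (IL11 added) and the same counts elsewhere, and with no replicate block the class comparison gave 5, without IL6 and LIFR. Low counts of IL6, LIF and IL6R limit their precision.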
